A study of Mus musculus with 7 samples.

Results

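Skeletal muscle was compared with 6 other tissues of the same series, gene by gene, in RNA-Seq of wild-type (wt) C57BL/6 mice at 36 weeks of age on the diet labelled NCD. The other tissues were interscapular brown adipose tissue (BAT), subcutaneous adipose tissue (SCAT), visceral adipose tissue (VAT), cortex, kidney and liver, and all 7 shared strain, genotype, age and diet. The labels give the strain as C57BL/6, and the study's text gives the substrain as C57BL/6N. Skeletal muscle makes up 1 of the 7 libraries, and each other tissue also has 1 library, so no difference between tissues has a replicate check and no test was possible. The labels do not say which muscle was dissected or how many mice a library holds. Values are FPKM, fragments scaled for transcript length and library size, so levels can be set side by side between genes, and the fragment counts behind them are unknown. Of 50226 gene names in the table, 19119 had a muscle value and at least 1 FPKM in any tissue, and these were compared. A gene was called muscle-enriched when it had at least 1 FPKM in muscle and a log2(FPKM + 0.1) at least 2, or 4-fold, above the highest of the 6 other tissues. The ratio to that highest tissue is given below as the log2 ratio.

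Skeletal muscle is built of long multinucleate fibres packed with myofibrils, in which myosin thick filaments pull on actin thin filaments anchored at the Z disc. A nerve signal crosses the neuromuscular junction, spreads along the membrane and opens calcium release channels of the sarcoplasmic reticulum, and calcium binding to troponin starts contraction. ATP for this work is buffered by creatine kinase and supplied by glycogen breakdown, glycolysis and mitochondrial oxidation, in proportions that differ between fast and slow fibre types.

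The library labelled skeletal muscle carried the markers of muscle fibres. Ckm, the muscle creatine kinase that defines the tissue in this comparison, had 8592 FPKM in muscle, 166 in BAT, 9.86 in VAT, 1.70 in SCAT, 0.0780 in kidney and 0.0727 in cortex, and no value was given for liver. Its muscle level was above every other value given, with a log2 ratio of 5.69 over BAT. Tnnt3, fast troponin T, had 9815 FPKM and Mylpf, a fast myosin regulatory light chain, had 5595 FPKM. Myh4, the fast IIb myosin heavy chain, shares a locus with Myh8 that was listed at 0 in muscle with the status LOWDATA in all 6 comparisons, and Ttn, the giant sarcomere spring protein titin, was listed in the same way. Both are treated as having no muscle value, although BAT had 87.5 FPKM at the Myh4 and Myh8 locus and 29.0 FPKM at Ttn. The same holds for several mitochondrial genes, among them mt-Co1, which have no muscle value, and Acta1 was not analysed here.

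Among 15095 protein-coding genes, 510 were muscle-enriched, which is 3.38%. By the same rule cortex had 1233 enriched protein-coding genes, liver 509, kidney 373, SCAT 288, VAT 184 and BAT 113. The 510 genes had a median of 48.3 FPKM in muscle and a median log2 ratio of 3.39, against a median log2 ratio of -1.06 over all protein-coding genes compared. A level of at least 100 FPKM was reached by 160 of them, and 210 were at least 16-fold (a log2 ratio of 4) above the highest other tissue. Together their loci held 38.2% of the summed FPKM of nuclear protein-coding loci in muscle, and the same loci held 2.25% in BAT and 0.547% to 1.62% in each of the other tissues. At the edge of the rule, 44 genes had a log2 ratio of less than 2.1 and a further 37 genes lay between 1.9 and 2. With FPKM rescaled to an equal sum over protein-coding genes, 310 of the 510 met the rule.

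**Figure D1:**
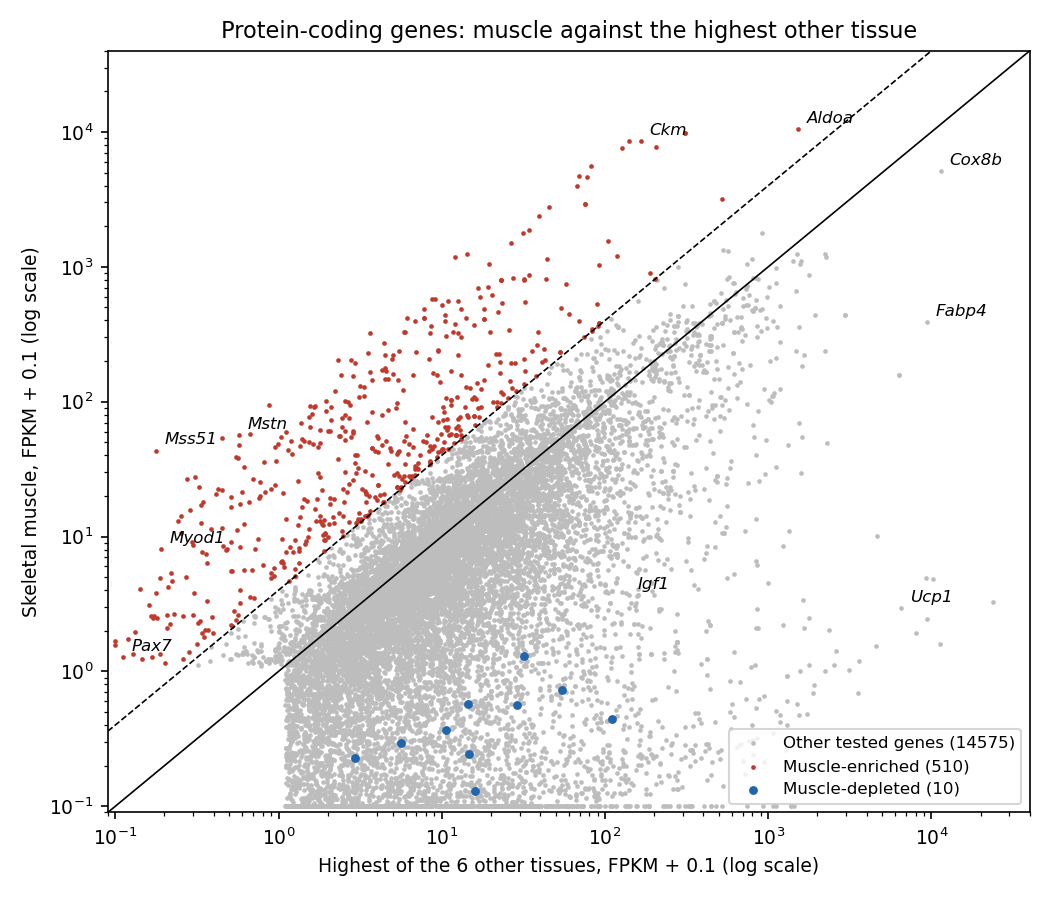
Each point is 1 of the 15095 protein-coding genes compared, with FPKM + 0.1 in skeletal muscle on the vertical axis and in the highest of the 6 other tissues on the horizontal axis, both on log scales. The solid line marks equal levels and the dashed line 4-fold, above which the 510 muscle-enriched genes lie, with muscle levels from 1.06 to 10537 FPKM.

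The 50 highest nuclear protein-coding loci held 33.2% of the summed FPKM of such loci in muscle, against 34.2% in liver, 26.5% in kidney and 10.5% in cortex. The 10 highest in muscle were the loci of Aldoa, Tnnt3, Ckm, Tpm1, Tnni2, Myl1, Mylpf, Cox8b, Pvalb and Tnnc2. All but Cox8b, a respiratory chain subunit that was higher in BAT, were muscle-enriched.

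Of the other tissues, BAT was the nearest to muscle for 280 of the 510 enriched genes (54.9%). Among the compared protein-coding genes that were not muscle-enriched, BAT was the highest of the 6 for 23.6%. Cortex was nearest for 89 enriched genes, kidney for 44, VAT for 42, liver for 33 and SCAT for 20, and 2 (Gm3646 and Uts2b) were listed at 0 in every other tissue. The median BAT level of the enriched genes was 3.99% of the muscle level. Over 14240 protein-coding loci, log2(FPKM + 0.1) in muscle had a Pearson correlation of 0.849 with BAT, as a description across genes, which are not replicates, against 0.714 with SCAT, 0.707 with VAT and 0.529 with cortex. Whether muscle fibres lay in the BAT sample was not tested, and in bulk tissue fewer cells of a type and less RNA per cell cannot be told apart.

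With the pseudocount of 0.1, the largest log2 ratio was that of Mss51 (7.93), a mitochondrial protein of muscle, with 43.2 FPKM in muscle and between 0.00624 and 0.0780 in the other tissues. Ankrd1, a stress-responsive ankyrin repeat protein of the sarcomere, followed with 53.9 FPKM against at most 0.353 (log2 ratio 6.90). Next came Cacng1, a subunit of the muscle calcium channel, with a log2 ratio of 6.75, and Mstn, the secreted growth inhibitor myostatin, with 6.63. Completing the 20 largest were Myh1, Ky, Ostn, Flnc, 2310002L09Rik, Mybpc2, Mypn, Actc1, Klhl41, Klhl30, Musk, Casq1, Fam181a, Mylpf, Pvalb and Ryr1, with log2 ratios from 6.60 down to 6.04. The order depends on the pseudocount, and with a pseudocount of 1 Mss51 had 5.36, below Myh1 (6.50), Mybpc2 (6.36) and Flnc (6.15). For 6 of the 20 the locus used is an opposite-strand one, and on the annotated strand the log2 ratio was 4.56 for 2310002L09Rik (6.46 as reported), 5.62 for Ky, 5.66 for Musk, 5.89 for Mypn, 5.95 for Myh1 and 6.06 for Mstn. Among these, Flnc and Mypn are Z disc proteins, Ryr1 and Casq1 act in calcium release and storage, and Ostn is a secreted peptide. Mss51 lies at chr14:20482867-20496901, Cacng1 at chr11:107703218-107716522 and Mstn at chr1:53061640-53068079 of GRCm38.

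The table places overlapping or adjacent genes within shared bounds, and this bears on single names. For 164 of the 510 enriched genes (32.2%) the locus used is opposite in strand to the gene's annotation, as far as strand can be read from the order of the loci. Over all protein-coding genes compared this share was 20.4%. A further enriched gene of higher muscle level lay within the same bounds for 39 of the 510, and 28 shared their locus with another protein-coding name. None of these applied to 286 genes (56.1%). For example, Rabep2 (1514 FPKM) lies within the bounds of Atp2a1, Mark4 (1778 FPKM) within those of Ckm, Ube2c (575 FPKM) within those of Tnnc2 and Fam181a (38.3 FPKM) within those of Asb2. Lsp1 shares the locus of Tnnt3 and Rnf167 that of Eno3, so their values are those of the joint locus. How much of the signal under these names comes from the neighbouring muscle gene was not tested.

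To show the sequence at the start of genes from different roles, promoter windows of 250 bases before to 50 bases after a RefSeq start are printed for Ckm, Mylpf, Tnnc2, Pgam2 (muscle phosphoglycerate mutase) and Trim63 (the ubiquitin ligase MuRF1), chosen after their values were seen. They are from GRCm38.p6 and run 5′ to 3′ along the gene. Capitals mark matches to an E-box of the myogenic factors (CAGCTG), an MCAT element (CATTCC or its complement GGAATG), a MEF2 site, a CArG box and a TATA box (TATAAA).
Ckm (chr7:19410844-19411143, plus strand): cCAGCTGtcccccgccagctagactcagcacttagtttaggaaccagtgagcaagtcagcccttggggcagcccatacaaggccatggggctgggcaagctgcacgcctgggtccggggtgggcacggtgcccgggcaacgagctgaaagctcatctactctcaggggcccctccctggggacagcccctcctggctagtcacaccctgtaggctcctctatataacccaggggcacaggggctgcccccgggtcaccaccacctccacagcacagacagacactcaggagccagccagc
Mylpf (chr7:127211358-127211657, plus strand): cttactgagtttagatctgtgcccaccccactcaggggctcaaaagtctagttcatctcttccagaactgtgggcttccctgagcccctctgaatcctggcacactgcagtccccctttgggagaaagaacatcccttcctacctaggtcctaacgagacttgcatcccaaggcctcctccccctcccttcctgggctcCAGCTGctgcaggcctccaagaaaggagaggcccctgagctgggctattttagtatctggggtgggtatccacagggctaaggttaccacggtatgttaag
Tnnc2 (chr2:164779685-164779984, minus strand): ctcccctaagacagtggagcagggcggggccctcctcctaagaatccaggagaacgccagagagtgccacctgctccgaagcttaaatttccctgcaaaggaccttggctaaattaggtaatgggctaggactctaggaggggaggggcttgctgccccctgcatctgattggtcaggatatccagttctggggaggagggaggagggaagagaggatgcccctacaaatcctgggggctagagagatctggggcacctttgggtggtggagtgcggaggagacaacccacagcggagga
Pgam2 (chr11:5803747-5804046, minus strand): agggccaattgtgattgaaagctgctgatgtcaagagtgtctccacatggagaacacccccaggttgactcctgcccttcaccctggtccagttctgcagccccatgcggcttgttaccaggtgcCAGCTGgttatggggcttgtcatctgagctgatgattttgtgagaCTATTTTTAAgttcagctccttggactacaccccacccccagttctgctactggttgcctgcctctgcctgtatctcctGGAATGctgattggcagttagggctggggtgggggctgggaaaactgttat
Trim63 (chr4:134314870-134315169, plus strand): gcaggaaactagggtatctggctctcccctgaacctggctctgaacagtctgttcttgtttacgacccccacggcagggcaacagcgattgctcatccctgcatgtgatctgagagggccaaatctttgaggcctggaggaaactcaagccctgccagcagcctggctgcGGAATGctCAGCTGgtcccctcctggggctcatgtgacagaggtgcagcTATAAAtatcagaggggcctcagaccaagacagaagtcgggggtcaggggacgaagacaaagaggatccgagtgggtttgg
In these windows the E-box of Ckm begins at position -249 relative to the start, that of Mylpf at -51, that of Pgam2 at -125 and that of Trim63 at -72. Pgam2 also held a MEF2 site beginning at -80 and an MCAT match beginning at -1, and Trim63 an MCAT match at -80 and a TATA box at -31. The window of Tnnc2 held no match to any of the 5. Windows were found for 382 of the 510 enriched genes, as 481 windows. The E-box was in 25.4% of these, against 16.3% of all 32851 windows of the table and 16.2% of the windows of the protein-coding genes compared. MEF2 sites were in 8.11% of the windows of enriched genes, against 3.19% of all windows and 1.95% of those of compared genes. The MCAT element was in 17.7% against 14.7% and 12.7%, the CArG box in 3.12% against 1.63% and 1.34%, and the TATA box in 6.65% against 8.32% and 5.22%. For the enriched genes whose locus is on the annotated strand and shared with no neighbour, with 288 windows, the shares were 23.6% for the E-box, 6.25% for MEF2 sites, 15.6% for the MCAT element, 3.82% for the CArG box and 4.51% for the TATA box, the last below that of the compared genes. Both strands were searched (for the TATA box the strand of the gene), and no match was counted as a bound site.

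Beyond the enriched set as a whole, 232 genes were grouped in 12 lists by role, of which 221 could be compared and 139 (62.9%) met the rule of enrichment. Over all compared protein-coding genes the share was 3.38%, which is the background for each list count below. All but 1 of the 139, Pgm2, are annotated as protein-coding under the name in the table. The lists contain the best known genes of muscle, so a high share is built into their choice, and the counts serve to show which roles were above the other tissues and which were not.

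**Figure D2:**
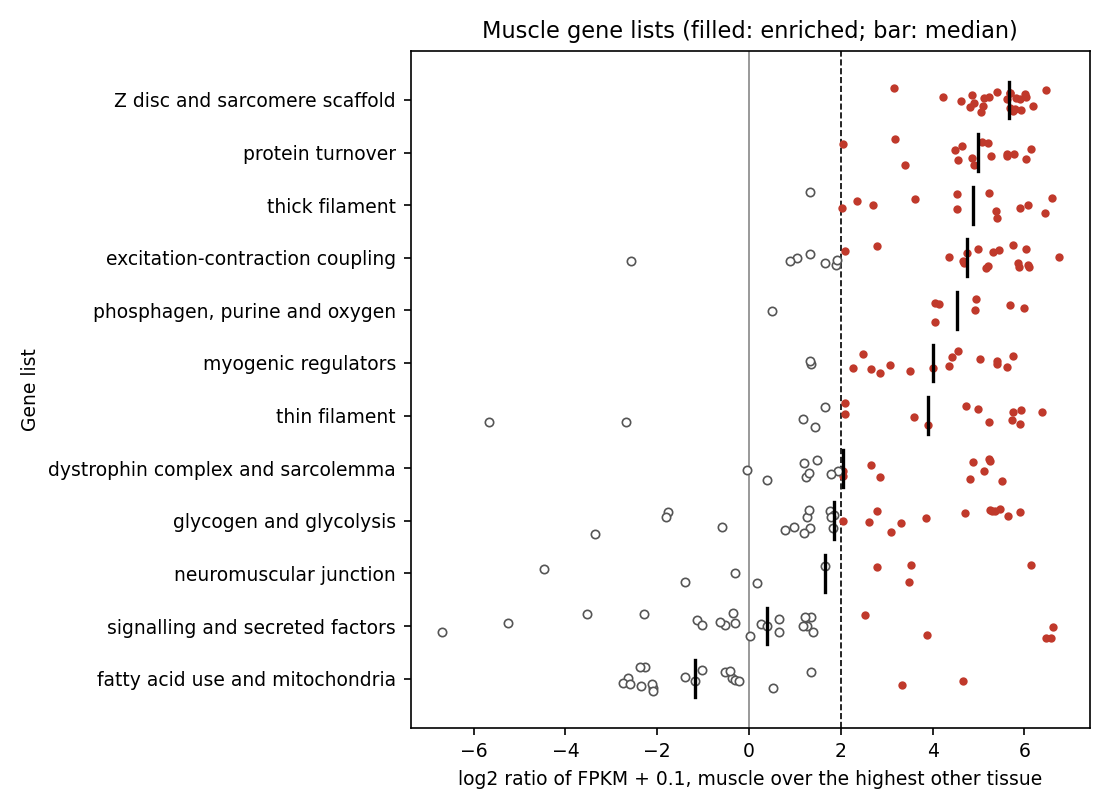
Points are the 221 compared genes of 12 lists, placed by their log2 ratio of FPKM + 0.1 in skeletal muscle over the highest other tissue. Filled points are enriched, bars are list medians, the dashed line is the 4-fold limit, and the lists range in median from 5.66 for Z disc and sarcomere scaffold to -1.17 for fatty acid use and mitochondria.

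Of the thick filament genes, 13 of 14 compared were enriched, with a median log2 ratio of 4.89. Myl1, the fast essential light chain, had 7609 FPKM in muscle, 126 in BAT, 14.2 in VAT, 4.72 in SCAT and between 0.0274 and 0.260 in the remaining tissues. Myh1, the fast IIx heavy chain, had 1175 FPKM against 12.0 in BAT, with the locus used lying on the strand opposite to the gene, and its locus on the annotated strand had 630 FPKM in muscle. Mybpc2, fast myosin-binding protein C, had 1252 FPKM against 14.2. The slow-fibre members Myl2 and Myh7 were nearer to the rule's limit, with Myl2 at 335 FPKM against 82.7 in BAT (log2 ratio 2.02) and Myh7 at 42.9 against 8.29. Mybpc1, slow myosin-binding protein C, was further above BAT, at 541 FPKM against 23.2. Mybph, a myosin-binding protein, missed the rule with 50.9 FPKM against 20.1 in BAT and 16.7 in cortex. Embryonic Myh3 and cardiac Mybpc3 were under 1 FPKM in every tissue.

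Of the thin filament genes, 12 of 17 compared were enriched. Tnnt3 was the highest (9815 FPKM, 307 in BAT), followed by the tropomyosin gene Tpm1 (8575 FPKM, 140 in BAT). Actc1, cardiac actin, had the largest log2 ratio of the list (6.39), at 47.9 FPKM against 0.472 in BAT. Neb, the thin filament ruler nebulin, had 1861 FPKM against 34.2. Those that missed the rule were the slow troponin gene Tnnt1 (102 FPKM, 37.3 in BAT), Tpm3, Tmod1, and the cardiac troponins Tnni3 and Tnnt2. The cardiac pair was at 0.217 and 0.00556 FPKM in muscle, below SCAT and kidney, where they were highest, and Tnnt2 had 0.484 in muscle on its annotated strand.

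All 24 compared genes of the Z disc and sarcomere scaffold list were enriched, with log2 ratios from 3.16 to 6.47. Actn3, the fast-fibre alpha-actinin, was the highest with 2776 FPKM against 45.5 in BAT. Flnc, filamin C, had the largest log2 ratio (6.47), at 321 FPKM against 3.52. The intermediate filament gene Des had 817 FPKM against 43.6, and Myoz2, a calsarcin of slow fibres, the smallest log2 ratio, at 91.5 FPKM against 10.1. In the dystrophin complex and sarcolemma list, which tie the cytoskeleton to the matrix, 10 of 18 were enriched. Sgca, alpha-sarcoglycan, led by log2 ratio with 166 FPKM against 3.52, and Capn3, a muscle calpain, had the highest level with 383 FPKM against 92.3, on a locus that also carries the name Ganc. Dmd, dystrophin itself, had 82.9 FPKM in muscle and 29.6 in cortex and missed the rule, as did Dysf, Sgcb, Itga7, Dtna, Lama2 and Dag1. Sgcd was at 54.5 FPKM in muscle and 56.6 in BAT.

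**Figure D3:**
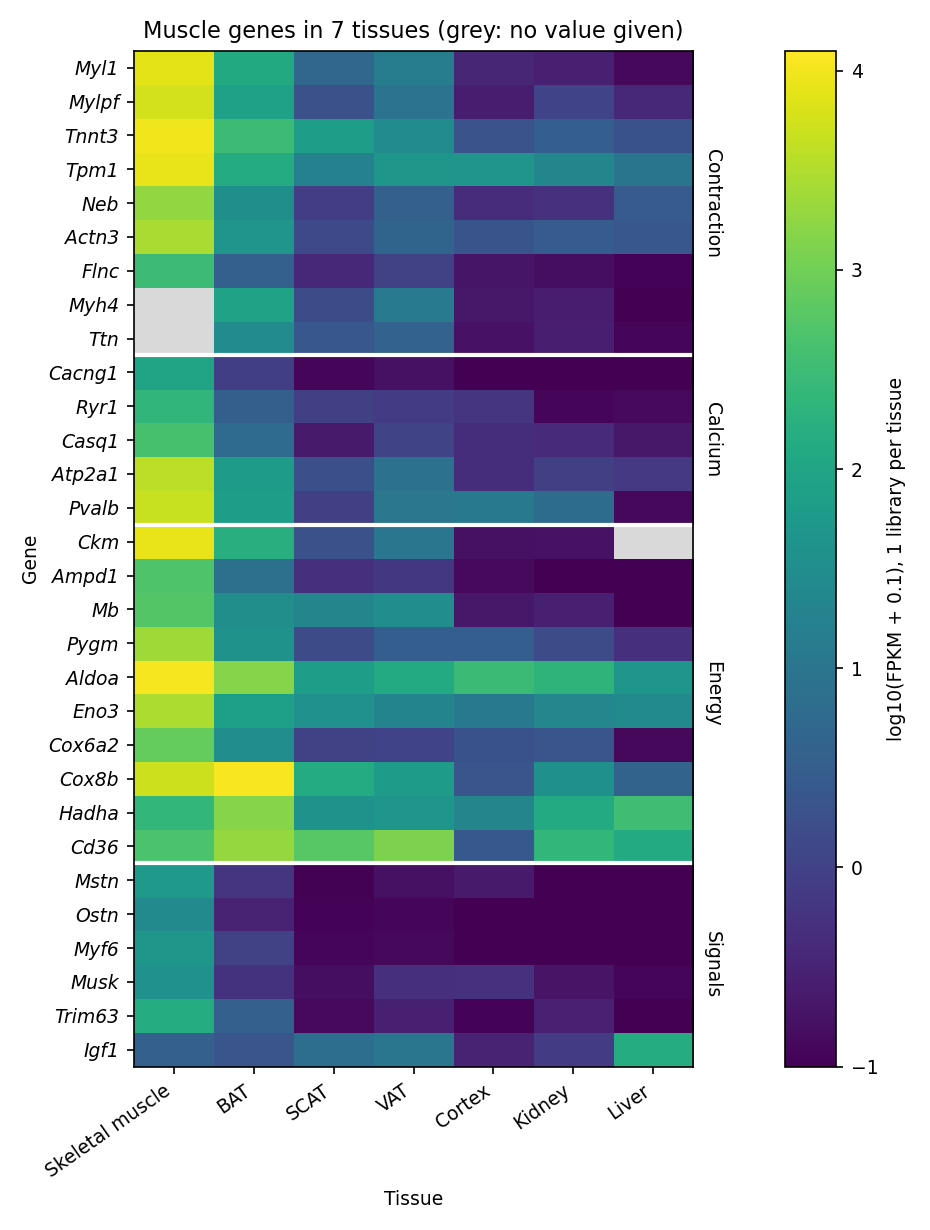
The map shows log10(FPKM + 0.1) of 30 genes in the 7 tissues, 1 library each, grouped by role. Contraction and calcium genes are brightest in skeletal muscle with BAT next, Hadha and Cd36 are brighter in BAT, Igf1 is brightest in liver, and grey cells (Myh4 and Ttn in muscle, Ckm in liver) have no value.

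For excitation-contraction coupling, 18 of 25 genes were enriched. Pvalb, the calcium buffer parvalbumin, had 4675 FPKM in muscle and 69.1 in BAT, and Atp2a1, the fast calcium pump, had 3995 FPKM and 67.2. Ryr1, the calcium release channel, had 230 FPKM against 3.41, Cacna1s, its voltage sensor, 237 against 5.35, and Casq1, the calcium store protein calsequestrin, 419 against 5.98. Clcn1, the chloride channel of muscle, reached 44.4 FPKM and was held under 4-fold by cortex at 11.7 FPKM. Cacna2d1 missed it with 209 FPKM in muscle, at an opposite-strand locus (98.0 on its annotated strand), and 66.2 in cortex. Sln, Atp2a2, Pln and Asph also missed the rule, and Ryr3 was higher in cortex (4.07 FPKM) than in muscle (0.600 FPKM).

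Neuromuscular junction genes were low, with a median of 7.53 FPKM, and 4 of 9 compared were enriched. Musk, the receptor kinase of the postsynaptic membrane, had 38.6 FPKM against 0.449 in BAT, with 14.5 FPKM on its annotated strand. Chrne, the adult acetylcholine receptor subunit, had 2.54 FPKM against at most 0.129, and the fetal subunit Chrng was under 1 FPKM in every tissue. Rapsn and Chrna1 were also enriched, while Chrnb1 had 16.8 FPKM in muscle and between 5.55 and 14.99 in the other tissues. Ache, Lrp4 and Colq were highest elsewhere, and the locus of Colq also carries the name Hacl1.

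Energy genes divided by pathway. In the phosphagen, purine and oxygen list 7 of 8 were enriched, with Ckmt2, the mitochondrial creatine kinase, at 826 FPKM against 27.1 in BAT, and Ampd1, the muscle AMP deaminase, at 490 FPKM against 7.64. Mb, myoglobin, had 544 FPKM in muscle, 32.5 in BAT and 32.1 in VAT. The creatine transporter Slc6a8, at 48.3 FPKM in muscle and 34.1 in kidney, missed the rule.

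In the glycogen and glycolysis list 13 of 27 were enriched and 23 were above every other tissue, as were 24.0% of all compared protein-coding genes. Aldoa, aldolase A, had the highest muscle level of the list, 10537 FPKM, with 1525 in BAT, 302 in cortex and 203 in kidney. Pygm, the muscle glycogen phosphorylase, had the largest log2 ratio (5.91), at 2387 FPKM against 39.5. Pgam2 had 557 FPKM against 12.4, Pfkm 1149 against 43.8 in cortex, and Eno3, on the locus shared with Rnf167, 2937 against 75.1. Slc16a3, the lactate exporter MCT4, had 131 FPKM against 3.08 in liver. The glucose transporter gene Slc2a4 (187 FPKM, 54.2 in BAT), Hk2 (33.9, 17.1 in BAT) and the widely used Pkm, Ldha, Tpi1, Gpi1 and Pgk1 were above the other tissues by less than 4-fold. Gys1, Gbe1, Ldhb and Gpd1 were higher in another tissue, with Gpd1 at 84.7 FPKM in muscle and 865 in BAT.

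For fatty acid use and mitochondria, 2 of 21 genes were enriched, against 3.38% of all compared protein-coding genes. In this list 16 of 21 were higher in BAT than in muscle. Over all compared protein-coding genes with a BAT value, 44.7% were higher in BAT than in muscle. Enriched were Cox6a2, the muscle form of a cytochrome oxidase subunit, at 802 FPKM against 31.7, and Slc25a4, the muscle ADP/ATP carrier, at 1196 against 118. Cox8b, another subunit of that enzyme, had 5108 FPKM in muscle and 11478 in BAT, at a locus on the strand opposite to the gene, and 591 FPKM in muscle on its own strand. Hadhb, of the trifunctional protein of beta-oxidation, had the lowest log2 ratio (-2.75), with 440 FPKM in muscle and 2952 in BAT on a locus that also carries the name Garem2. Its partner Hadha had 239 FPKM in muscle, 1487 in BAT and 341 in liver. Pdk4, which restrains pyruvate oxidation, was at 1151 FPKM in muscle and 796 in BAT. With BAT left out, 9 of the 21 met the rule, while the count over all protein-coding genes rose from 510 to 625.

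Of the myogenic regulators, 15 of 17 compared were enriched, at a median of 16.7 FPKM. Myf6, the myogenic factor of mature fibres, had 48.8 FPKM against 0.896 in BAT, Myod1 7.97 against 0.0904, Myog 7.31 against 0.262 and Myf5 3.72 against 0.0776. For each of these the locus used lies on the strand opposite to the gene, and on the annotated strand muscle had 28.7 FPKM for Myf6, 1.17 for Myod1, 1.25 for Myog and 0.326 for Myf5. For Myf5 this is under the 1 FPKM of the rule. In all, 11 of the 15 enriched regulators were called on an opposite-strand locus. Smyd1, a methyltransferase of muscle, was the highest with 362 FPKM against 8.43, also on the opposite strand, and had 95.8 FPKM on its own. Pax7, the marker of satellite cells, had 1.17 FPKM in muscle and at most 0.0115 elsewhere. On its annotated strand Pax7 had 0.388, which is also under the 1 FPKM of the rule. Mef2c, at 212 FPKM, was also high in cortex (84.3 FPKM) and missed the rule with Mef2a. The fusion genes Mymk and Mymx, listed as Tmem8c and Gm7325, were under 1 FPKM in every tissue.

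Of the signalling and secreted factors, 5 of 25 compared were enriched, with a median log2 ratio of 0.39. Mstn had 56.6 FPKM in muscle, 0.474 in BAT, 0.134 in cortex, 0.0723 in VAT, 0.00911 in SCAT and 0 in kidney and liver, with 19.1 FPKM in muscle on the annotated strand. Ostn, the secreted peptide osteocrin or musclin, had 27.3 FPKM against 0.209, Ky, a transglutaminase-like protein of the Z disc, 26.6 against 0.176 in VAT (15.2 in muscle on its annotated strand), and Fgf6 1.85 against 0.0321, with 0.0999 on the annotated strand of Fgf6. Irs1, an insulin receptor substrate, had 1.94 FPKM against 0.254 in liver. Fndc5, the precursor of irisin, had 36.6 FPKM in muscle (7.66 on its annotated strand) and 16.2 in cortex, and Il15 12.9 in muscle and 8.13 in kidney. Igf1, Fgf21 and Fgfr4 were highest in liver, and Igf1 had 3.59 FPKM in muscle and 141 in liver. With cortex left out, 9 signalling genes met the rule, while the count over all protein-coding genes rose from 510 to 649. Camk2a and Camk2b, calcium-dependent kinases, were at 32.7 and 51.8 FPKM in muscle and 71.9 and 105 in cortex, and Camk2b had 35.3 in muscle on its annotated strand. All 16 genes of the protein turnover list were enriched, with Asb5, of a ubiquitin ligase complex, at 707 FPKM against 19.1 in BAT (256 in muscle on its annotated strand), Trim63 at 145 against 3.64 and Fbxo32, the ubiquitin ligase atrogin-1, at 84.3 against 3.66.

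Fast and slow isoforms differed in how far BAT lay below muscle. In 10 pairs of a fast and a slow partner, the fast gene had the higher muscle level in each, by 2.31 to 96.6 times. BAT levels of the fast partners were 1.02% to 3.13% of the muscle level, and those of the slow partners 4.29% to 37.3%, with the slow partner above the fast one in all 10 pairs. For example, Mylpf had 81.9 FPKM in BAT and Myl2 82.7, although in muscle they had 5595 and 335. Tnnt1 had 37.3 FPKM in BAT and 102 in muscle. The cardiac markers Myh6, Nppa, Myl7 and Ryr2 summed to 0.644 FPKM in muscle, 1.74 in BAT and 19.4 in cortex, where Ryr2 made up 19.3.

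**Figure D4:**
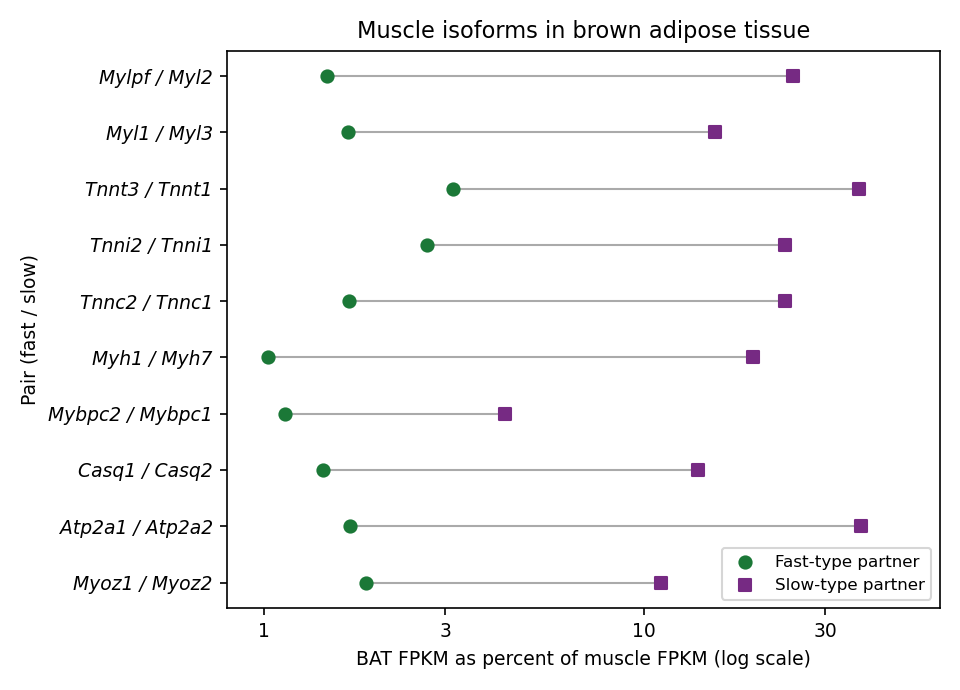
For 10 pairs of a fast and a slow muscle gene, points give the BAT level as a percent of the skeletal muscle level on a log scale. Circles, the fast partners, lie between 1.02% and 3.13%, and squares, the slow partners, between 4.29% and 37.3%.

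Markers of other cell types in the muscle library ranged widely. The 5 adipocyte markers were all above 1 FPKM in muscle and summed to 438 FPKM, 4.06% of the BAT sum, of which Fabp4 made up 388 and Adipoq 14.1. The brown adipocyte markers summed to 4.08 FPKM, against 7549 in BAT. Endothelial markers summed to 33.6 FPKM, against 48.9 in BAT, and fibroblast markers to 377, against 399 in VAT. Of the 4 fibroblast markers, Col1a1, Col3a1 and Pdgfra were higher in muscle than in every other tissue, at 17.9, 89.8 and 9.74 FPKM against at most 5.86, 53.7 and 6.55, and Dcn was higher in VAT. Tendon markers summed to 27.8 FPKM in muscle, the highest of the 7 tissues, against 9.70 in VAT. Of 6 tendon markers, 3 were above 1 FPKM in muscle, and Thbs4 was muscle-enriched (13.9 FPKM against 1.25 in cortex), while Scx and Mkx were at 0.490 and 0.0362 FPKM. The sums were lower in muscle than in another tissue for smooth muscle markers (40.6 FPKM, 143 in VAT), leukocyte markers (22.0 FPKM, 183 in SCAT) and red blood cell markers (466 FPKM, 1238 in VAT). Neuronal markers summed to 0.0680 FPKM against 286 in cortex, epidermal markers to 0.0220, hepatocyte markers to 6.68 against 2521 in liver, where Alb has no value, and cartilage and bone markers to 0.321. The part of these cells in the enriched genes was not tested.

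Among 1392 lncRNAs, 88 were muscle-enriched (6.32%), with a median of 5.39 FPKM and a median log2 ratio of 3.49. Over all lncRNAs compared the median log2 ratio was -1.45. With equal sums 58 lncRNAs met the rule. By Ensembl biotype 46 were lincRNAs, 41 antisense and 1 a bidirectional promoter lncRNA. BAT was the nearest tissue for 45 of them and cortex for 15. The shares of these tissues over all lncRNAs compared were not determined. Gm29323 was listed at 0 in every other tissue, at an opposite-strand locus. On its annotated strand Gm29323 had 0.648 FPKM in muscle, under the 1 FPKM of the rule. An enriched protein-coding gene on the opposite strand overlapped 34 of the 88 (38.6%), whereas 23 of the 1304 lncRNAs that were not enriched (1.76%) overlapped a muscle-enriched protein-coding gene. A further 10 overlapped a protein-coding gene that was not enriched, 3 lay within the bounds of an enriched gene without overlap, and 41 did none of these. For 23 of the 88 the locus used is opposite in strand to the lncRNA's annotation. All of these but Gm26740 are among the 41, and some, such as Gm43699 and Gm28783, were at 0 in muscle on the annotated strand.

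**Figure D5:**
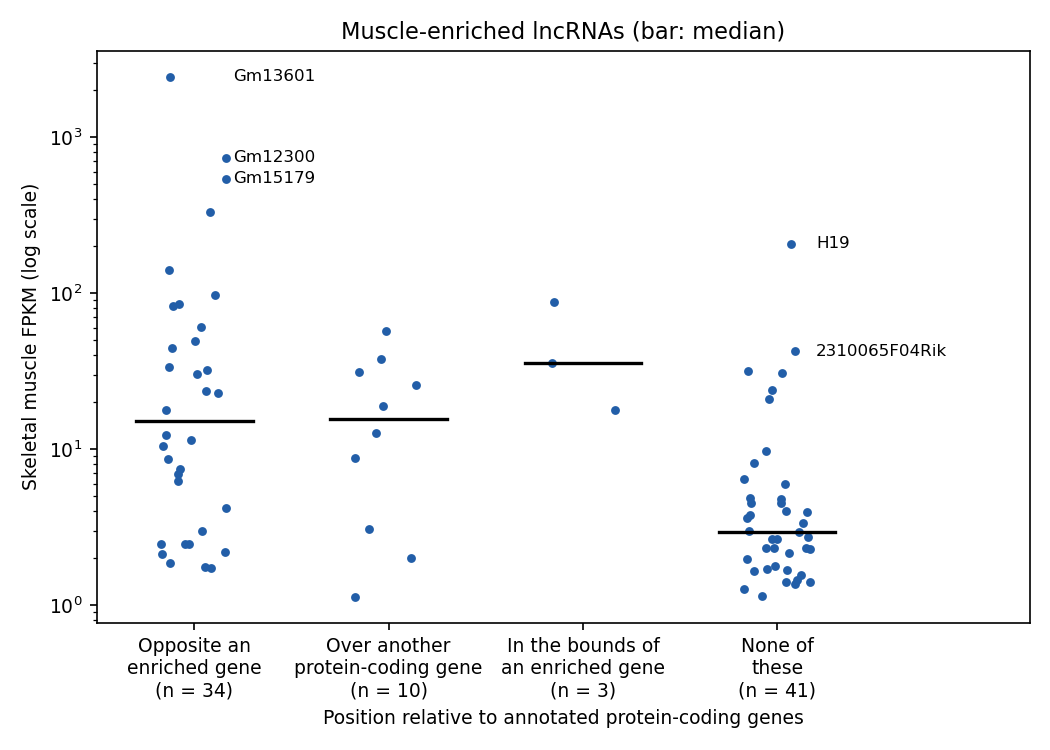
Points are the 88 muscle-enriched lncRNAs with their skeletal muscle FPKM on a log scale, split by position relative to annotated protein-coding genes, with bars at the medians. The 34 opposite an enriched gene have a median of 15.1 FPKM and reach 2431 (Gm13601), and the 41 with no such neighbour have a median of 2.96 FPKM and reach 207 (H19). For 23 of the 88, H19 among them, the locus used is opposite in strand to the lncRNA's own annotation.

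Gm12300 had the largest log2 ratio (6.53, or 6.38 with a pseudocount of 1, when Gm13601 was above it), at 737 FPKM in muscle, 7.86 in BAT and under 1 elsewhere, and it lies opposite Myh1 at chr11:67211256-67237573. Gm13601, opposite Xirp2 at chr2:67491044-67516525, was the highest lncRNA with 2431 FPKM against 27.7 in BAT, above the 92.9 FPKM listed for Xirp2 itself. Gm26604 lies opposite Ryr1 (49.3 FPKM), Gm17224 opposite Casq1 (141), Gm37759 opposite Cacna1s (85.1), Gm15469 opposite Trim54 (33.5), 1700095B10Rik opposite Myo18b (10.4), Gm15816 opposite Ank1 (44.1) and 9430073C21Rik opposite Myh2 (82.5). The value of 5031434C07Rik (330 FPKM) belongs to a locus that also carries the protein-coding name Lmcd1. For these, transcription of the lncRNA and reads of the gene opposite cannot be told apart with the table alone.

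Of the 15 lncRNAs with the largest log2 ratios, 5 do not lie opposite an enriched gene. They are 2310065F04Rik, Gm12224, which overlaps Acsl6, Gm28651, which lies beside 3425401B19Rik, Gm15543, which overlaps Casc1, and Gm13943. The lincRNA 2310065F04Rik at chr11:67112461-67120080 had 42.4 FPKM in muscle, 0.780 in BAT, 0.267 in VAT and at most 0.0221 in the rest, and Myh3, the nearest protein-coding gene, lies 10170 bases away. Its locus is also an opposite-strand one, and on the annotated strand 2310065F04Rik had 21.6 FPKM in muscle. Gm13943 at chr2:77314751-77317035 had 9.76 FPKM against 0.186 in BAT and 0 in the others. H19, an imprinted lncRNA, was enriched, as 1 of 8 compared members of a separate list of known lncRNAs, with 207 FPKM in muscle, 23.6 in BAT and under 1 elsewhere. Its second locus, on the annotated strand, had 63.5 FPKM in muscle and 5.11 in BAT. Meg3 and Rian, imprinted lncRNAs of another cluster, were at 4.25 and 9.11 FPKM in muscle and 159 and 389 in cortex.

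Of 2187 genes of other biotypes, 68 were muscle-enriched (3.11%). Among them were loci named for 2 muscle miRNAs, where the FPKM are those of a longer locus under the miRNA's name and not of the mature form. Mir133a-2 had 59.5 FPKM in muscle, 0.686 in BAT and at most 0.188 elsewhere (log2 ratio 6.24), and Mir1a-1 had 42.0, 0.833 and at most 0.212 (log2 ratio 5.50). Both lie on chromosome 2, and for both the locus used is on the opposite strand, while that on the annotated strand was at 0 in every tissue. Nctc1, a processed transcript at chr7:142544609-142558596 near H19, had 32.0 FPKM in muscle against 0.492 in BAT, also at an opposite-strand locus, and 6.91 FPKM in muscle on its annotated strand.

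In the other direction, 10 of 8026 protein-coding genes that reached 1 FPKM in each other tissue were at least 4-fold below the lowest of them in muscle (0.125%). By this rule cortex had 245 depleted genes, liver 85, kidney 10, SCAT 8, BAT 2 and VAT 0. Cxadr, a cell adhesion protein and virus receptor, was the lowest by this measure, at 0.146 FPKM in muscle against 2.64 to 14.6 elsewhere (log2 ratio to the lowest -3.48), and its annotated-strand locus had 0.397 in muscle. Chdh, the choline dehydrogenase, had 0.0305 FPKM against 1.11 to 15.9, and Chka, choline kinase, 0.478 against 14.4 in liver. Nipsnap1, a mitochondrial protein, had 0.343 FPKM against 2.42 in SCAT and 110 in liver, and Sfxn1, a mitochondrial serine carrier, 1.20 against 5.70 in cortex and 32.0 in kidney. The kinase gene Ptk2b had 0.626 FPKM against 5.46 to 54.2. The remaining 4 were Ncapg, Zcwpw1, Chrna2 and Necab1, at 0.129 to 0.465 FPKM in muscle. Ptk2b and Chrna2 lie within the same bounds in the table. The count moved with the choice of libraries and scale, to 16 without BAT, 25 without SCAT, 35 without cortex, 32 with median-ratio scaling and 62 with equal sums. It fell to 0 with a pseudocount of 1, to 2 with a minimum of 5 FPKM and to 2 at 8-fold.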

How the data were processed

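RNA-Seq libraries of 7 mouse tissues, 1 each, were made from rRNA-depleted total RNA with a directional kit and sequenced as read pairs. According to the methods and the submitters' processing notes, the authors trimmed reads with flexbar, removed ribosomal reads with Bowtie2 (2.2.9), aligned to GRCm38 with STAR (2.6.0c), and assembled and compared transcripts with Cufflinks (2.2.1) and cuffdiff, whose library type and scaling settings are not given in the sources used here. The authors deposited FPKM for 94339 loci in 21 pairwise comparisons, with FPKM of a tissue identical across its comparisons. No fragment counts are given, so depth and precision are unknown. The authors' fold changes, test statistics, p-values and q-values in the table were not used.

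Names on 1 locus were split, the locus with the highest FPKM represented a name, 151 loci with status FAIL were dropped, and 145 zeros with status LOWDATA in all 6 comparisons of a tissue, 13 of them in muscle, were treated as missing. GENCODE biotypes matched 92.6% of the names. Strand is not listed and was inferred from how the loci are ordered, which places 75.2% of 62537 locus-name pairs on the strand of the annotation. FPKM were compared as log2(FPKM + 0.1), which understates differences of low values. A gene was depleted when it had at least 1 FPKM in each other tissue and was 4-fold below the lowest. Named genes are, per list, those with the highest level, the extreme log2 ratios and those missing the rule, the 20 protein-coding genes and 15 lncRNAs with the largest log2 ratio and the 10 depleted genes. Others were named after their values were seen. The values of 1 marker list are not reported here. The members and lists were chosen with earlier results of these data known. The rule was tested on simulated data. Alternatives covered pseudocount, minimum, fold, scaling, missing and failed loci, choice of locus and left-out tissues. Promoter windows are from RefSeq. Python 3.11.15, pandas 2.3.3, NumPy 2.4.6 and matplotlib 3.10.9 were used.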

Additional observations from a re-analysis of the deposited data

How the results depend on the processing

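With 1 library per tissue and no fragment counts, neither replicate spread nor counting error could be given, and all values describe these libraries. The libraries differed in scale, and 2 rescalings took the median log2 ratio of the compared protein-coding genes from -1.06 to -1.52 (median ratio) and -2.05 (equal sum). Of the 510 enriched protein-coding genes, 386 (75.7%) and 310 (60.8%) remained. The count was 1153 at 2-fold, 299 at 8-fold, 310 with equal sums, and 286 with the opposite-strand and shared loci left out, an alternative chosen after seeing the data. Under the other alternatives it was between 386 and 649. The 88 enriched lncRNAs became 51 with a pseudocount of 1, 44 with a minimum of 5 FPKM, 140 at 2-fold, 56 at 8-fold and 58 with equal sums. The 10 depleted genes became 0 with a pseudocount of 1, 2 with a minimum of 5 FPKM, 91 at 2-fold, 2 at 8-fold, 32 with median-ratio scaling, 62 with equal sums, 16 without BAT, 35 without cortex and 25 without SCAT. This small count therefore depends on the scale of the libraries. The list counts moved by over 1.5 times for dystrophin and sarcolemma (10 to 16 at 2-fold and 6 at 8-fold), glycogen and glycolysis (13 to 21 at 2-fold), fatty acid use (2 to 9 without BAT) and signalling (5 to 3 with a pseudocount of 1 or a minimum of 5 FPKM, 10 at 2-fold and 9 without cortex). Of the 10 depleted genes named, none met the rule with a pseudocount of 1, 2 did with a minimum of 5 FPKM and 2 at 8-fold, and Zcwpw1 did not with equal sums. The order of genes by log2 ratio also changed with a pseudocount of 1, under which Mss51 went from 7.93 to 5.36. Beyond what a changed limit itself sets, the cause was not tested.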

Other observations

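The enriched protein-coding genes include 372 that are in none of the 12 lists. The genes named here lie on their annotated strand, share no locus and were chosen after their values were seen. Fhl1, a LIM domain protein of muscle, had 1035 FPKM in muscle and 92.2 in BAT, and Ybx3, an RNA-binding protein, 745 and 57.4. Several handle other RNA or protein steps, such as Rpl3l, a muscle form of a ribosomal protein (121 FPKM, 5.70 in BAT), Rbm20, a splicing regulator of titin (19.2 FPKM, 0.657 in kidney), and Unc45b, the myosin chaperone (94.4 FPKM, 2.64 in BAT). Amd1, of polyamine synthesis, had 236 FPKM against 9.39 in cortex, and Prkab2, a subunit of the energy sensor AMPK, 55.2 against 2.25 in cortex. Bin1, a protein of membrane tubules, had 238 FPKM in muscle and 35.8 in cortex. Igfn1, a sarcomere protein, had 17.9 FPKM in muscle against 0.561 in cortex and 0.0134 in BAT.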
